A study of Mus musculus with 7 samples.

Results

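The genes described here are 10 genes whose proteins modify and fold collagen in the endoplasmic reticulum. They are the prolyl 3-hydroxylases Lepre1, Leprel1 and Leprel2 (current symbols P3h1, P3h2 and P3h3), the lysyl hydroxylases Plod1, Plod2 and Plod3, the prolyl 4-hydroxylase subunits P4ha1, P4ha2 and P4hb, and the collagen chaperone Serpinh1. They were found by symbol in a table of read numbers scaled by gene length and library size (RPKM), in which each has 1 row, so they are 10 of 11642 rows. The set was chosen by the measured rise of Leprel1 after depletion of lnc-SMaRT in these same samples, with the other 9 genes added as its relatives by function. The values of Leprel1 are therefore a description, without a test.

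C2C12 is an established line of mouse myoblasts, which leave the cell cycle and fuse into myotubes when serum is lowered. Total RNA was sequenced on day 2 of differentiation from 2 samples transfected with scramble siRNA (si-SCR) and 2 transfected with siRNA #1 against lnc-SMaRT, a cytoplasmic long non-coding RNA of differentiating muscle cells (si-SMaRT). In addition, RNA from C2C12 cells was pulled down with probe set #1 against lnc-SMaRT or with probes against LacZ, and these and the input gave 1 library each. The study describes the sequenced cells as independent populations of the one line, and 1 siRNA was used, so the comparison is of that siRNA with the scramble control in C2C12 cells.

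Collagen chains are modified while they are still unfolded. Prolyl 4-hydroxylase makes the 4-hydroxyproline that keeps the triple helix stable at body temperature, prolyl 3-hydroxylases modify a few particular prolines, and lysyl hydroxylases make the hydroxylysine that carries sugars and cross-links. These enzymes need iron, oxygen, 2-oxoglutarate and ascorbate, and Serpinh1 then binds the folded procollagen and leaves it in the Golgi. Myoblasts and the connective tissue cells around muscle fibers make collagens of the basement membrane and of the interstitial matrix.

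Lnc-SMaRT, the targeted RNA, had an RPKM of 19.1 and 15.9 in si-SCR 1 and 2 and of 2.88 and 3.65 in si-SMaRT 1 and 2, so each sample matched its label. The log2 fold change was -2.39 (SE 0.28, limma adjusted p = 0.000882, n = 2 per group). The effective library sizes, worked out from the RPKM values, were 11291255 to 14312933 read pairs. These samples were sequenced paired-end, so the reads counted below are read pairs. By the read numbers of the study, si-SMaRT 1 lost a far larger part of its read pairs to the rRNA and tRNA filter than the other si-SCR and si-SMaRT samples. The part of this loss in the values was not tested. The 2 depleted samples differed from each other along the GC content of genes. Over 10885 genes, Spearman's rho between GC content and the log2 difference si-SMaRT 2 minus si-SMaRT 1 was -0.85, against 0.35 for si-SCR 2 minus si-SCR 1, where genes of a sample share one library and are not independent.

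In control cells the 10 genes covered a wide range of levels per length. Serpinh1 was the most abundant, with 456.4 ± 3.87 RPKM in si-SCR (SD, n = 2), followed by P4hb with 331.4 ± 13.9 and P4ha1 with 78.7 ± 2.10. Plod2 had 31.8 ± 1.34 RPKM, Plod3 15.1 ± 0.616 and Lepre1 14.4 ± 1.33. P4ha2 had 7.81 ± 0.432 RPKM, Plod1 7.32 ± 0.529, Leprel2 1.18 ± 0.163 and Leprel1 0.220 ± 0.0112. Only 2 pairs of neighbors in this order overlapped between their 2 samples, Plod3 with Lepre1 and P4ha2 with Plod1. In si-SMaRT the order of the means was the same except that P4ha2 and Plod1, at 7.15 and 7.17 RPKM, changed places. Thus the chaperone and the shared subunit of prolyl 4-hydroxylase stood at the top in both groups and Leprel1 at the bottom, with 1.46% of all rows lower than it in si-SCR. All 10 genes passed the filter of a mean RPKM of at least 0.5, but Leprel1 passed it only through the depleted samples.

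**Figure D1:**
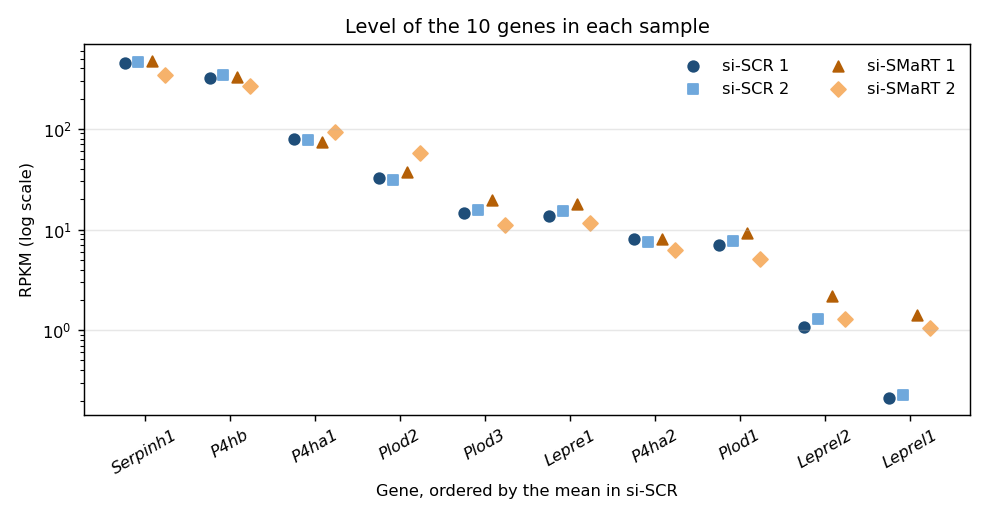
RPKM of the 10 genes (log scale) in the 2 si-SCR and 2 si-SMaRT samples, each point being 1 sample and the genes ordered by their mean in si-SCR. The levels run from 456.4 for Serpinh1 to 0.220 for Leprel1 in si-SCR means, and Leprel1 is the gene whose si-SMaRT points stand farthest above its si-SCR points.

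Leprel1 lies at chr16:25959288-26105784 on the minus strand (GRCm38, GENCODE M21) and encodes prolyl 3-hydroxylase 2, an enzyme known to act on the chains of basement membrane collagen IV. Its RPKM in the control samples was 0.212 and 0.228, and in the depleted samples 1.40 and 1.05, in replicate order. Both depleted samples stood above both controls, and the higher of them was si-SMaRT 1. The mean went from 0.220 ± 0.0112 to 1.23 ± 0.249 (SD, n = 2), which is 5.57 times the control level and a difference of 2.04 on the log2(RPKM + 0.1) scale. The added 0.1 compresses a gene this low. With 0.01 added the difference was 2.41, and with 1 added it was 0.86.

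These levels rest on few reads. The RPKM steps gave 10 and 12 read pairs for Leprel1 in si-SCR 1 and 2 and 59 and 56 in si-SMaRT 1 and 2. Summed and scaled by library size, 115 against 22 read pairs gave a ratio of 5.47. Even in the depleted cells Leprel1 stayed a rare transcript, below every other member in mean RPKM. In bulk RNA, a change in the number of cells that express a gene and a change in RNA per cell cannot be told apart.

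Lepre1 (chr4:119232915-119248975, plus strand) encodes prolyl 3-hydroxylase 1, which works in a complex with Crtap and cyclophilin B on fibrillar collagen. Its RPKM was 13.5 and 15.4 in si-SCR and 17.9 and 11.7 in si-SMaRT. The depleted samples thus lay on either side of the controls, with si-SMaRT 1 above and si-SMaRT 2 below both. The log2 fold change was 0.01 (SE 0.28, 95% confidence interval -0.59 to 0.61, limma adjusted p = 0.997). Without si-SCR replicate 1 or without si-SMaRT replicate 1 it was -0.08 or -0.30.

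Leprel2 (chr6:124841089-124857752, minus strand) encodes prolyl 3-hydroxylase 3, which acts with lysyl hydroxylase 1 in a complex on collagen lysines. It had 1.07 and 1.30 RPKM in si-SCR and 2.16 and 1.28 in si-SMaRT. Only si-SMaRT 1 stood above the controls, while si-SMaRT 2 lay between them. Leprel2 had a log2 fold change of 0.47 (SE 0.34, interval -0.24 to 1.18, limma adjusted p = 0.748). It was 0.11 without si-SMaRT replicate 1 and 0.83 without si-SMaRT replicate 2, and neither passed the threshold. With a crossed pairing of the samples as a block and the GC trend removed, a setting added after the data were seen, it passed at 0.64 (limma adjusted p = 0.0442), where 12.9% of all genes passed.

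Within the prolyl 3-hydroxylases the makeup differed between the groups while the sum did not separate them. Leprel1 was chosen for its rise, so a larger share of it came with that choice, and so did smaller shares of the others. The makeup is therefore a description, without a test. The summed RPKM of the 3 genes was 14.8 and 16.9 in si-SCR and 21.5 and 14.0 in si-SMaRT. Leprel1 made up 1.44% and 1.35% of that sum in si-SCR and 6.53% and 7.50% in si-SMaRT, a mean of 1.40% ± 0.0621 against 7.02% ± 0.689 (SD, n = 2). Lepre1 stayed the main enzyme by RNA level, with 91.3% and 91.0% in si-SCR and 83.4% in each si-SMaRT sample. Leprel2 held 7.22% and 7.68% in si-SCR and 10.1% and 9.13% in si-SMaRT. These shares were alike in the 2 depleted samples, although the sum was not. With the GC trend of each sample removed, the Leprel1 share was 1.29% and 1.28% against 6.60% and 5.82%.

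**Figure D2:**
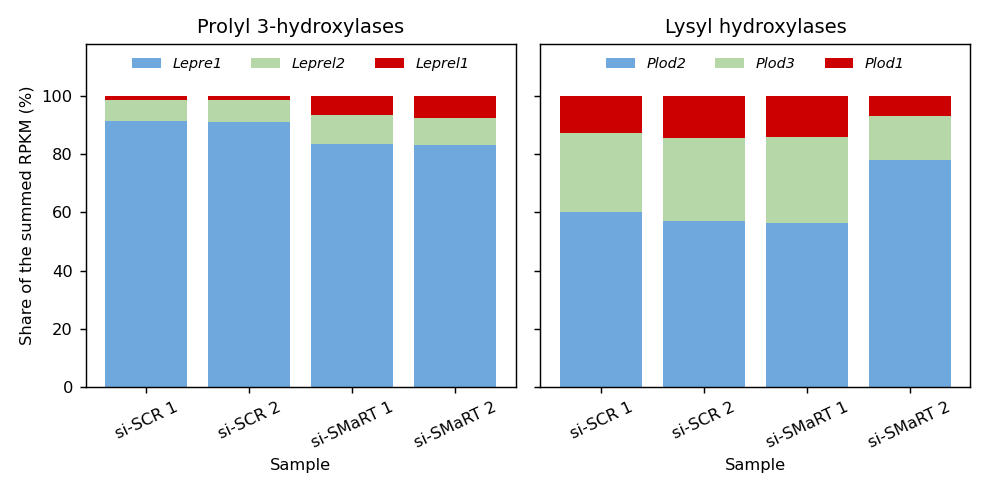
Share (%) of each prolyl 3-hydroxylase gene (left) and each lysyl hydroxylase gene (right) in the summed RPKM of its family, 1 bar per sample. The Leprel1 segment is 1.44% and 1.35% in si-SCR and 6.53% and 7.50% in si-SMaRT, and the Plod2 segment is 60.2%, 57.0% and 56.4% in the first 3 samples and 78.2% in si-SMaRT 2.

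Among the lysyl hydroxylases, Plod2 (chr9:92542223-92608428, plus strand) encodes the enzyme that hydroxylates lysines of the collagen telopeptides, the ends that form pyridinoline cross-links. Its RPKM was 32.7 and 30.8 in si-SCR and 37.2 and 57.6 in si-SMaRT. Both depleted samples stood above both controls, and si-SMaRT 1 only slightly so. The mean was 31.8 ± 1.34 against 47.4 ± 14.4, with a log2 fold change of 0.54 (SE 0.28, interval -0.05 to 1.13, limma adjusted p = 0.596). This did not pass the threshold of 0.05, and it turned on 1 library. Without si-SMaRT replicate 1 the log2 fold change was 0.86 (limma adjusted p = 0.000362), a setting in which 26.2% of all genes passed, and without si-SMaRT replicate 2 it was 0.23.

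Plod1 (chr4:147909753-147936767, minus strand) encodes the enzyme that hydroxylates lysines within the triple helix. Its RPKM was 6.95 and 7.70 in si-SCR and 9.28 and 5.06 in si-SMaRT, so the depleted samples lay on either side of the controls. This gave a log2 fold change of -0.09 (SE 0.31, interval -0.74 to 0.56, limma adjusted p = 0.961), and it was 0.34 without si-SMaRT replicate 2. Plod3, whose row is joined with the microRNA gene Mir702 (chr5:136987019-136996648, plus strand), encodes the lysyl hydroxylase that also adds glucose and galactose to hydroxylysine. It had 14.7 and 15.5 RPKM in si-SCR and 19.46 and 11.03 in si-SMaRT, again on either side of the controls. Its log2 fold change was -0.04 (SE 0.30, interval -0.67 to 0.59, limma adjusted p = 0.982), and it was 0.36 without si-SMaRT replicate 2.

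The 3 lysyl hydroxylases summed to 54.3 and 54.1 RPKM in si-SCR and to 65.9 and 73.7 in si-SMaRT. Their makeup set si-SMaRT 2 apart from the other 3 samples. Plod2 held 60.2%, 57.0% and 56.4% of the sum in si-SCR 1, si-SCR 2 and si-SMaRT 1 and 78.2% in si-SMaRT 2. The ratio of Plod2 to Plod1 was 4.709, 4.006, 4.003 and 11.38 in the same order. Plod2 has 42.3% GC in its exons, and Plod1 and Plod3 have 53.5% and 57.0%.

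The alpha subunits P4ha1 and P4ha2 carry the catalytic site of prolyl 4-hydroxylase. P4hb, which is protein disulfide isomerase, is the beta subunit and also works by itself in disulfide bond formation. P4ha1 (chr10:59323296-59373304, plus strand) had 80.2 and 77.2 RPKM in si-SCR and 74.6 and 92.6 in si-SMaRT. The depleted samples lay below and above the controls, with a log2 fold change of 0.08 (SE 0.26, interval -0.48 to 0.64, limma adjusted p = 0.961). Without si-SMaRT replicate 2 it was -0.08.

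P4ha2 (chr11:54100095-54131665, plus strand) had 8.12 and 7.51 RPKM in si-SCR and 7.98 and 6.32 in si-SMaRT. Only si-SMaRT 2 fell outside the range of the controls. P4ha2 thus had a log2 fold change of -0.14 (SE 0.28, interval -0.72 to 0.45, limma adjusted p = 0.929), and 0.03 without si-SMaRT replicate 2. P4ha1 made up 90.8%, 91.1%, 90.3% and 93.6% of the RPKM of both alpha subunits in si-SCR 1 and 2 and si-SMaRT 1 and 2, so it was the main alpha subunit by RNA level in every sample.

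P4hb (chr11:120560298-120573253, minus strand) had 321.5 and 341.2 RPKM in si-SCR and 329.7 and 269.2 in si-SMaRT. As with P4ha2, only si-SMaRT 2 lay outside the controls, and the log2 fold change was -0.15 (SE 0.27, interval -0.73 to 0.43, limma adjusted p = 0.919). P4hb exceeded the alpha subunits together by 3.64 and 4.03 times in si-SCR and by 3.99 and 2.72 times in si-SMaRT.

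P4ha1 and P4ha2 are known to be induced by hypoxia, through factors that bind a short core. Only its form ACGTG was searched. Of the 10 genes, 8 had a promoter in the RefSeq table (GRCm38.p6, 300 bases, from 250 before to 50 after the start), with 9 promoters in all. The letters ACGTG, read on both strands, were in 6 of these 9 promoters, those of P4ha1, P4ha2, P4hb, Plod3 and Serpinh1 and 1 of the 2 of Lepre1. Of all 32851 promoters in the table, 19.6% held them. The promoters of these genes had a GC content of 53.3% to 70.3%, against a median of 52.7% over all promoters, and ACGTG holds a CG. Both alpha subunit promoters are printed because these subunits are the textbook hypoxia-induced members. They are read 5′ to 3′ on the plus strand, at chr10:59323046-59323345 for P4ha1 and chr11:54100674-54100973 for P4ha2, and capitals mark ACGTG or its reverse complement.
P4ha1: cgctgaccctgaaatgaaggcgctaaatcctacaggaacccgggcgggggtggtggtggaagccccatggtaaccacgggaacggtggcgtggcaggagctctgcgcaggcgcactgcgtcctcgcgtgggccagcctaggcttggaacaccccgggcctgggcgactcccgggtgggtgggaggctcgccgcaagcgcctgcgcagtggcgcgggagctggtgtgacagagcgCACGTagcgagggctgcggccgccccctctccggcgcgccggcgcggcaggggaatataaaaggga
P4ha2: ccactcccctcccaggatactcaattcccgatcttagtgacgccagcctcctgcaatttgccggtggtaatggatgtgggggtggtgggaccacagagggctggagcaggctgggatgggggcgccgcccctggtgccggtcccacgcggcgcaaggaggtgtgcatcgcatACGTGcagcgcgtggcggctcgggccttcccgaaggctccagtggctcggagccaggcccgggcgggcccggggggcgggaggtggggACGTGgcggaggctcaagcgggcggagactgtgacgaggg
A match is a description of these letters and not of a bound site. In the RNA, P4ha1 and P4ha2 had log2 fold changes of 0.08 and -0.14, and neither passed the threshold.

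Serpinh1 (chr7:99345376-99353239, minus strand) encodes the chaperone that binds the collagen triple helix in the endoplasmic reticulum. Its RPKM was 453.7 and 459.2 in si-SCR and 474.2 and 345.0 in si-SMaRT, with the depleted samples on either side of the controls. On the log2 scale the difference was -0.17 (SE 0.28, interval -0.78 to 0.43, limma adjusted p = 0.910), and 0.05 without si-SMaRT replicate 2. The 10 genes together summed to 932.7 and 956.1 RPKM in si-SCR and 973.9 and 800.8 in si-SMaRT.

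In the fit over 11086 genes, 0 of the 9 genes other than Leprel1 passed an adjusted p of 0.05 (limma), and 0 had an unadjusted p under 0.05. Over all genes, 56 passed, which is 0.505%, and 9.09% had an unadjusted p under 0.05. Read against those shares, 0 of 9 is no result about these genes. The intervals above still hold log2 differences of over 0.4 in either direction for each gene except Plod2 and Leprel2, where the lower bounds are -0.05 and -0.24. Of the 10 genes, 5 had a higher mean log2 level in si-SMaRT, against 52.3% of all genes. With the GC trend removed 6 did, and after quantile normalization 7, where the share of all genes was not worked out. These counts and the medians that follow include Leprel1, which was chosen for its rise, so they are a description. The median log2 fold change was -0.02 for the 10 genes and 0.02 for all genes. Without si-SMaRT replicate 1 the median of the 10 genes was -0.30, and without si-SMaRT replicate 2 it was 0.27. Apart from Leprel1, which was chosen on this contrast, the groups did not overlap for Plod2, 1 of 9 genes, against 40.7% of all genes. With the GC trend removed they did not overlap for 5 of 9, against 56.8% of all genes, and after quantile normalization for 3 of 9, against 39.6%.

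**Figure D3:**
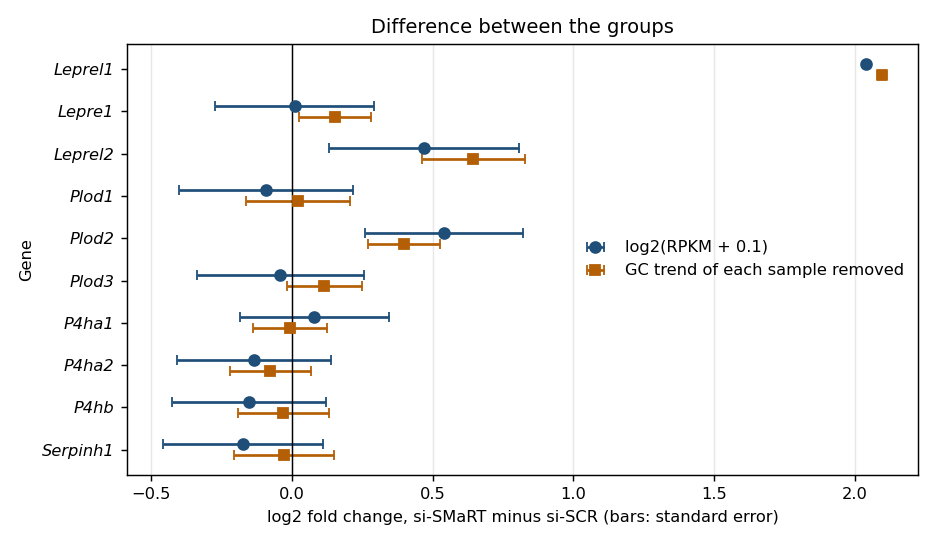
Log2 fold change (si-SMaRT minus si-SCR) of the 10 genes on the log2(RPKM + 0.1) scale (circles) and with the GC trend of each sample removed (squares), with bars of 1 standard error for the 9 tested genes and none for Leprel1. Leprel1 lies at 2.04 and 2.10, and the circles of the other 9 genes lie between -0.17 and 0.54.

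The replicates of the depleted group were farther apart than those of the control group. For the 10 genes, the median absolute log2 difference between replicates was 0.537 in si-SMaRT and 0.0856 in si-SCR, against 0.418 and 0.185 over all genes. The difference si-SMaRT 2 minus si-SMaRT 1 was positive for the members with the lowest GC content, 0.63 for Plod2 and 0.31 for P4ha1, and negative for the other 8. Other genes behaved alike. For Plod2, genes within 1 point of its 42.3% GC had a median difference of 0.49, and for Lepre1, at 56.4% GC, those genes had a median of -0.64 beside its own -0.61. Plod1 stood farther from genes of its GC content, at -0.86 beside -0.40, and Leprel1 was at -0.39 beside -0.28.

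**Figure D4:**
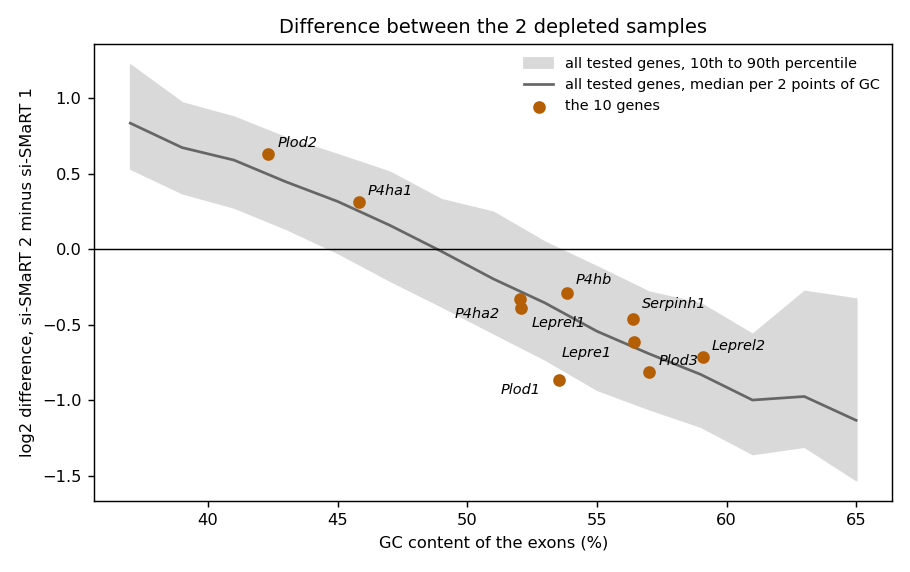
Log2 difference between the 2 si-SMaRT samples (si-SMaRT 2 minus si-SMaRT 1) against the GC content (%) of the exons, with the 10 genes as points and all tested genes as the median (line) and the range from the 10th to the 90th percentile (band) per 2 points of GC. The 10 genes follow the slope of all genes, from 0.63 for Plod2 at 42.3% GC to -0.71 for Leprel2 at 59.1% GC, and Plod1 lies below the band.

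With that trend removed in each sample by a loess fit, 0 of the 9 genes passed (limma) and 2 had an unadjusted p under 0.05. Of all genes, 4.31% passed and 24.2% had an unadjusted p under 0.05. The log2 fold change was then 2.10 for Leprel1, 0.64 for Leprel2 (limma adjusted p = 0.0867), 0.40 for Plod2 (limma adjusted p = 0.113) and 0.15 for Lepre1 (limma adjusted p = 0.489). The remaining 6 genes lay between -0.08 and 0.11, with Plod1 at 0.02, Plod3 at 0.11 and P4ha1 at -0.01, each of the opposite sign to its value before.

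Other genes of collagen biosynthesis were counted in lists by step. Where calls with the GC trend removed are given, 4.31% of all genes passed in that fit. Of the folding partners of the endoplasmic reticulum, 20 of 22 were tested, 13 had a higher mean in si-SMaRT, and the median log2 fold change was 0.10, beside 52.3% higher and a median of 0.02 over all genes. None passed the threshold (limma, 0 with an unadjusted p under 0.05, against 9.09% of all genes). Crtap, the partner of Lepre1 in the 3-hydroxylation complex, had 13.3 and 14.6 RPKM in si-SCR and 23.8 and 16.8 in si-SMaRT, with a difference of 0.52 on the log2 scale (SE 0.28, limma adjusted p = 0.605), and with the GC trend removed it passed at 0.67 (limma adjusted p = 0.0302). The third member of that complex, Ppib (cyclophilin B), had a log2 fold change of -0.20 (SE 0.27, limma adjusted p = 0.885), and Leprel4, a non-enzymatic relative of the 3-hydroxylases that is known to assist lysyl hydroxylation, one of -0.25 (SE 0.27, limma adjusted p = 0.857). The disulfide isomerase Pdia3 had a log2 fold change of 0.43, its relative Pdia6 one of -0.50, and the ion channel Tmem38b one of -0.40, with limma adjusted p of 0.691, 0.605 and 0.697.

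For procollagen export from the endoplasmic reticulum, 11 genes were tested, 6 were higher in mean and the median log2 fold change was 0.14. None passed (limma, 0 with an unadjusted p under 0.05, against 9.09% of all genes). The values farthest from 0 were 0.57 for Ctage5 and 0.54 for Creb3l2, a transcription factor of secretory cells, and -0.48 for Klhl12 and -0.36 for the coat protein Sec13. For processing and cross-linking outside the cell, 11 of 13 genes were tested, 8 were higher in mean and the median was 0.14. None passed, and 3 had an unadjusted p under 0.05 (limma), against 9.09% of all genes. Lox, the lysyl oxidase that uses the lysines and hydroxylysines left by the Plod enzymes, had 54.9 and 58.0 RPKM in si-SCR and 85.4 and 118.1 in si-SMaRT, with a difference of 0.83 on the log2 scale (SE 0.27, limma adjusted p = 0.258). With the GC trend removed it passed at 0.71 (limma adjusted p = 0.0297), as did the procollagen protease Adamts2 at 0.93 (limma adjusted p = 0.0235). Loxl2, which passed the filter on low values only through the depleted samples, had 0.303 and 0.284 RPKM in si-SCR and 0.631 and 0.932 in si-SMaRT, and is 1 of the 3 genes with an unadjusted p under 0.05. Adamts14 had a log2 fold change of -0.37 and Loxl1 one of -0.10.

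The collagen chains are the substrates of the 10 genes. Of 40 chains, 23 were in the table and 19 were tested, of which 13 were higher in mean, with a median log2 fold change of 0.37. One chain passed the threshold and rose, Col12a1 of the fibril-associated collagen XII, with 5.46 and 6.51 RPKM in si-SCR and 16.8 and 14.7 in si-SMaRT (log2 fold change 1.38, SE 0.27, limma adjusted p = 0.0280). Over all genes 0.505% passed. Without si-SCR replicate 1 or without si-SCR replicate 2, 0 chains passed, against 5 without si-SMaRT replicate 1 and 11 without si-SMaRT replicate 2, where 26.2% and 8.49% of all genes passed. At an unadjusted p under 0.05 there were 7 chains of 19, against 9.09% of all genes.

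Of the chains of collagen IV, on which Leprel1 is known to act, 3 were tested, and each had its highest value in si-SMaRT 1. Col4a1 had 16.0 and 21.2 RPKM in si-SCR and 51.3 and 23.9 in si-SMaRT (log2 fold change 0.92, SE 0.33, limma adjusted p = 0.319). Col4a2 had 10.8 and 15.5 RPKM in si-SCR and 38.5 and 16.1 in si-SMaRT (log2 fold change 0.94, SE 0.35, limma adjusted p = 0.344). Col4a5, named after its values were seen, had 21.5 and 23.0 RPKM in si-SCR and 31.3 and 23.6 in si-SMaRT (log2 fold change 0.29, SE 0.27, limma adjusted p = 0.824). In all 3 chains si-SMaRT 2 stood just above the controls. With the GC trend removed, Col4a5 did not pass, at 0.31 (limma adjusted p = 0.229). Col4a1 and Col4a2 passed, at 1.06 and 1.13 (limma adjusted p of 0.0253 and 0.0171). Col12a1 and the collagen VI chains Col6a1 and Col6a3 passed too, in a fit where 4.31% of all genes did. With a block on replicate number as well, only Col12a1 of the chains passed. The fibrillar chains Col1a1, Col1a2 and Col3a1 had log2 fold changes of 0.50, 0.69 and 0.44 (limma adjusted p of 0.743, 0.490 and 0.713), and those farthest below 0 were Col7a1 at -0.79, which passed the filter on low values only through the controls, and Col16a1 at -0.28.

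Of 25 genes of the hypoxia response, 23 were tested. They were divided between directions, with 11 higher in mean and a median log2 fold change of -0.0048. None passed, and 2 had an unadjusted p under 0.05 (limma), against 9.09% of all genes. The glycolytic enzyme gene Tpi1 had 606.8 and 511.5 RPKM in si-SCR and 392.3 and 266.4 in si-SMaRT (log2 fold change -0.79, limma adjusted p = 0.348). Egln3, an oxygen-sensing prolyl hydroxylase, had a log2 fold change of -0.71 (limma adjusted p = 0.343) and passed at -0.67 with the GC trend removed (limma adjusted p = 0.0302). Pfkfb3 and Adm had 0.63 and 0.58.

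**Figure D5:**
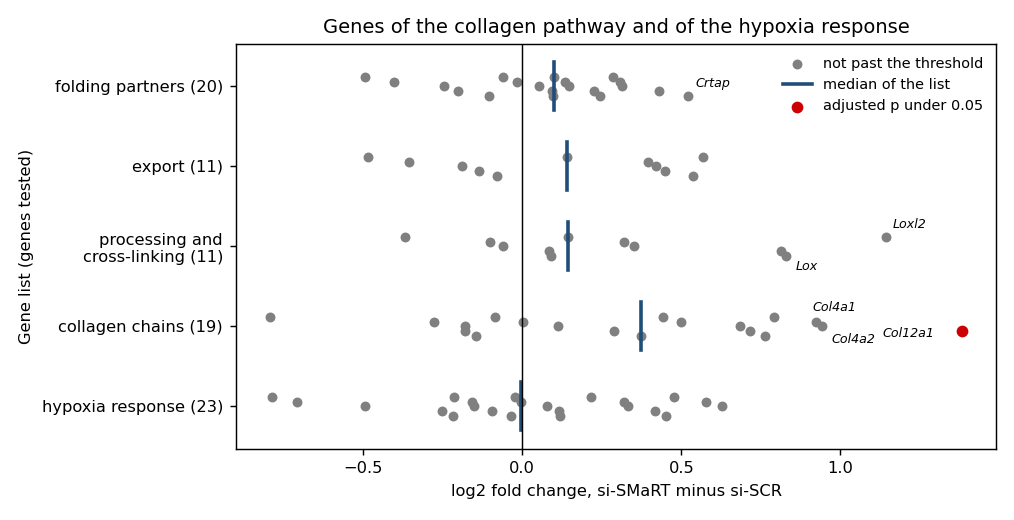
Log2 fold change (si-SMaRT minus si-SCR) of each tested gene of 4 lists of the collagen pathway and of the hypoxia response, with the number tested in parentheses, a bar at the median of each list and the gene past an adjusted p of 0.05 in red. The medians run from -0.0048 for the hypoxia response to 0.37 for the collagen chains, and Col12a1 at 1.38 is the gene in red.

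The skeletal muscle markers were lower in the depleted samples by sum. All 10 were in the table, and their summed RPKM was 11984 and 12212 in si-SCR and 8289 and 5584 in si-SMaRT. Of them 1 was higher in mean, the median log2 fold change was -0.69 and 0 passed (limma, 5 with an unadjusted p under 0.05, against 9.09% of all genes). After removal of the GC trend 3 passed and fell, Ckm (-1.13), Tnnt1 (-1.09) and Tnnc1 (-1.24), with limma adjusted p of 0.0294, 0.0187 and 0.0351. In that fit 4.31% of all genes passed. Of 8 markers of undifferentiated myoblasts, 7 were in the table and Pax7 was not listed. Their sum was 145 and 125 RPKM in si-SCR and 134 and 180 in si-SMaRT. Of the 7, 4 were higher in mean and the median log2 fold change was 0.25. Id3 and Ccnd1 rose by log2 fold changes of 1.60 and 1.36 (limma adjusted p of 0.0232 and 0.0356). In this fit, without removal of the GC trend, 0.505% of all genes passed. Id2 had a log2 fold change of -0.58 (limma adjusted p = 0.579), Id1 one of -0.01 and Myf5 one of -0.0040. The part of these markers in the values of Leprel1 and of the collagen genes was not tested.

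Markers of other cells that make or use collagen were sparse. Of 7 fibroblast markers, 3 were in the table, and their sum of 66.5 and 56.9 RPKM in si-SCR and 103 and 149 in si-SMaRT was nearly all Dcn, a collagen-binding proteoglycan with a log2 fold change of 1.03 (SE 0.28, limma adjusted p = 0.142). Dcn passed with the GC trend removed, at 0.82 (limma adjusted p = 0.0281). Thy1 was not listed, and Pdgfra stayed under 1 RPKM in every sample. Of 4 endothelial markers, 0 were listed. Macrophage and leukocyte, adipocyte, and cartilage and bone markers were listed for 1 of 4, 1 of 4 and 2 of 5 genes, with sums of at most 4.50 RPKM. Their part in the values was not tested.

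The 5 genes whose pattern over the 4 samples was most like that of Leprel1, by Euclidean distance of centered log2(RPKM + 0.1) values, were C1s1, Prelp, Gxylt2, Mgp and Bmp4, with distances of 0.164, 0.385, 0.464, 0.476 and 0.477. C1s1, a complement protease, had 0.581 and 0.520 RPKM in si-SCR and 3.0 and 2.4 in si-SMaRT. Prelp, a matrix proteoglycan that binds collagen, had 0.350 and 0.509 against 2.03 and 1.39. Mgp, an inhibitor of calcification in the matrix, was far more abundant, with 47.0 and 45.9 against 146.8 and 148.4. The likeness is over 4 samples and was used to pick these genes, so it carries no test.

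The pull-down of lnc-SMaRT addressed which RNAs are bound by it. Of the 345 peaks of the lnc-SMaRT pull-down and the 336 of the LacZ pull-down, 0 overlapped any of the 10 genes by 1 base or more on the same strand. Of 88 annotated genes of the lists above, 0 had a peak in the lnc-SMaRT list and 3 in the LacZ list. The share of all genes that hold a peak was not worked out, so 0 of 10 is no result about these genes. Each list comes from 1 library, and whether a transcript as rare as Leprel1 could give a peak was not tested.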

How the data were processed

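Total RNA of C2C12 cells was sequenced in 2 si-SCR and 2 si-SMaRT samples, with groups taken from the labels. The deposited RPKM values were calculated from reads. For these the authors used Trimmomatic for trimming, Bowtie 2 against rRNA and tRNA, TopHat2 for alignment to GRCm38 (Ensembl release 77), and htseq-count (intersection-strict) after mitochondrial reads were discarded, then dropped genes of low CPM and took RPKM from edgeR with TMM library sizes. Genes below that CPM limit are absent, and the library kit named in the labels is stranded. The peak p-value in the deposited pull-down lists comes from Piranha in bins of 200 bases. The lists do not state which background was used, and 1 library per probe set allowed no test.

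RPKM is not a count, so the count test of the study was not used. The test was limma 3.58.1 (lmFit, then eBayes with its trend option; R 4.3.3), applied to log2(RPKM + 0.1) of the 11086 genes whose mean RPKM reached 0.5, with Benjamini-Hochberg adjustment over all of them and a threshold of 0.05, after a test on simulated data. P-values measure the spread between these samples. Reads were recovered as whole multiples of the RPKM value of 1 read (tolerance 0.01 reads) for 11634 of 11642 rows, with gene lengths from GENCODE M21 where these fitted (6463 rows), and for other rows from the smallest common step, which gives a lower limit. Their sums were 11806192, 13043579, 10133618 and 12993389 read pairs in si-SCR 1 and 2 and si-SMaRT 1 and 2. All members other than Serpinh1 were read with the annotated length. Positions and GC content came from GENCODE M21 for 11401 rows, and promoters from RefSeq.

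Members and lists were chosen with earlier results of these data known. Named were all members, Lnc-SMaRT, from each list the genes past the threshold and those at the extremes of fold change (2 highest, 2 lowest), 5 collagen chains and the 5 genes most like Leprel1. Ppib, Leprel4, the genes past the threshold with the GC trend removed and the markers were named after their values were seen. The alternatives were pseudocounts of 1 and 0.01, a minimum mean RPKM of 0 and 5, quantile normalization, no trend in the prior variance, removal of the GC trend (loess, span 0.3), voom on the recovered reads, a block on replicate number, omission of each sample, and other peak overlaps. Python 3.11.15 with pandas 2.3.3, scipy 1.17.1 and matplotlib 3.10.9 was used for the rest.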

Additional observations from a re-analysis of the deposited data

How the results depend on the processing

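Genes past the threshold numbered 56 over the whole table, 37 after quantile normalization, 104 with voom on the recovered reads, 469 with the GC trend removed and 24 to 2908 with 1 sample left out, the most without si-SMaRT replicate 1. Such a fit leaves 1 sample in a group, assumed to vary like the other group. Members other than Leprel1 past the threshold were 0 in the main setting and 0 to 1 with 1 sample left out, the 1 being Plod2 without si-SMaRT replicate 1. Members higher in si-SMaRT numbered 3 of 8 at a minimum mean RPKM of 5 and 4 to 8 of 10 with 1 sample left out. Their median log2 fold change then ran from -0.30 to 0.27. The values over 10 members include Leprel1, which was chosen for its rise. The difference in the Leprel1 share between groups was 4.92 percentage points with the GC trend removed and 5.13 to 6.11 with 1 sample left out. The log2 fold change of Leprel1 was 2.28 after quantile normalization, 2.40 with voom and 1.85 to 2.23 with 1 sample left out. Past the threshold were, with the GC trend removed, 1 folding partner, 2 genes of processing and cross-linking, 5 collagen chains and 1 hypoxia gene, and 0 collagen chains after quantile normalization. With 1 sample left out these were 0 to 3 folding partners, 0 to 2 export genes, 0 to 5 genes of processing, 0 to 11 chains and 0 to 6 hypoxia genes. With the GC trend removed, with or without either block, the log2 fold change changed sign for Plod1 (0.019), Plod3 (0.11) and P4ha1 (-0.0085), and after quantile normalization for P4hb (0.066) and Serpinh1 (0.044). With 1 sample left out it ran from -0.30 to 0.32 for Lepre1 (-0.085 without si-SCR replicate 1), -0.52 to 0.34 for Plod1, -0.45 to 0.36 for Plod3, -0.078 to 0.23 for P4ha1, -0.30 to 0.031 for P4ha2 and -0.40 to 0.055 for Serpinh1. The cause of these turns was not tested, and the fold changes involved are smaller than their standard errors in the main setting. For samples of the same replicate number, the correlation over genes of their deviations from the group means was -0.36, or -0.19 with the GC trend removed. With 2 samples per group the deviations mirror each other, and those of si-SMaRT follow GC content. This correlation therefore cannot show whether the samples were paired. The replicate block gave 96 genes past the threshold, and 105 with the GC trend removed, with no call among the 9 members other than Leprel1. With block and GC removal together, 1 collagen chain (Col12a1) and 0 folding partners, export genes, genes of processing and hypoxia genes passed, so the calls of Crtap, Lox, Adamts2, Col4a1, Col4a2, Col6a1, Col6a3 and Egln3 made with the GC trend removed were lost. A crossed pairing as a block, added after the data were seen, gave 487 of 11086 genes, among them 3 of processing and 3 collagen chains. With the GC trend removed as well it gave 1402 genes, which is 12.9% of all genes. Among these were 1 member, Leprel2 (limma adjusted p = 0.0442), 4 folding partners, 3 export genes, 3 of processing, 8 chains and 5 hypoxia genes. The peak count on the members was 0 with exons only, an overlap of 100 bases or a peak p under 0.001. Depth limits Leprel1 the most, with 10 and 12 read pairs in the controls.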
